A study of Mus musculus with 16 samples.

Results

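Neuropeptides are short signalling peptides that neurons cut from larger precursor proteins, and the mRNA of the precursor is the template for that protein. In the striatum the output cells are GABAergic spiny projection neurons of 2 classes. Those of the indirect pathway carry the dopamine receptor Drd2 and make enkephalins from Penk, and those of the direct pathway carry the dopamine receptor Drd1 and make dynorphins from Pdyn and substance P from Tac1. Cartpt (CART peptides), Cck (cholecystokinin) and Nts (neurotensin) are the other precursors described here, and Cck is also a common product of cortical pyramidal cells and interneurons.

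The 6 genes were chosen by symbol and read out in every count table. They were 6 of 21627 annotated genes with reads in 11188350 long reads, and 128 of their isoforms held 23912 of these reads. Cortex and striatum came from the left hemisphere of 3-month-old male mice of the R6/2 line, strain B6CBA-Tg(HDexon1)62Gpb/3J, in which a transgene expresses exon 1 of human mutant HTT, and of non-transgenic (NT) controls. There were 4 samples in each of the 4 groups, namely NT striatum, R6/2 striatum, NT cortex and R6/2 cortex. Gene levels are long-read counts on known isoforms, new ones and truncated ones (ISM), scaled by TMM to CPM. The question for each gene was whether its reads, and the isoforms they came from, differed between R6/2 and NT and between the regions.

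Total reads ran from 252885 to 1496196 per sample. In the striatum, NT 1, NT 2, R6/2 2 and R6/2 3 each had 2 count sets, which were summed. These samples held 917832 to 1496196 reads each, against 317050 to 811470 in the other 4 striatal samples. Their mean isoform length per read was 2141 to 2225 nt, against 1618 to 1885 nt in those 4. In the striatum the number of count sets, depth and this length thus cannot be told apart. The labels fit the tissue: summed striatal projection neuron markers were at 4382 to 8196 CPM (reads scaled to a common library size) in NT striatum and 263 to 365 CPM in NT cortex, and summed cortical excitatory markers at 0 to 47.9 CPM and 195 to 220 CPM. The NT 3 striatum stood apart by choroid plexus markers, at 9184 CPM against 37.8 to 316 CPM in the other NT striata. In the cortex these markers were at 926 CPM in NT 4, 1192 CPM in R6/2 2 and 1551 CPM in R6/2 3. The other cortical samples had 4.31 to 40.6 CPM. Most of the sum was Ttr, with 5969 reads in NT striatum, where Folr1, the next, had 10.

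For Tac1 and Cartpt the reads were spread over splice forms, and their junction sequences show what separates them. Tac1 lies on chromosome 6 at 7554879 to 7565834 of mouse build GRCm38, plus strand. Its 7-exon isoform ENSMUST00000185187 carries a 45-nt coding exon at chr6:7557216-7557260, which the 6-exon isoform ENSMUST00000184986 skips. The annotated forms, of 1230 and 691 nt, also differ in how far their first and last exons reach. The 30 bases across each junction, read from GENCODE M21 transcripts 5′ to 3′ with 15 bases on each side and with the bases of the 45-nt exon in capitals, follow.
Tac1 into the 45-nt exon: gcaagcgggatgctgATTCCTCAGTTGAAA
Tac1 out of the 45-nt exon: TAAAGGCTCTTTATGgacatggccagatct
Tac1 skipping the 45-nt exon: gcaagcgggatgctggacatggccagatct

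Cartpt lies on chromosome 13 at 99898489 to 99901091, minus strand. Its second exon is annotated in a long form of 123 nt, chr13:99899957-99900079, and a short form of 84 nt, chr13:99899957-99900040, which differ by 39 nt at the start of the exon. The same kind of window shows the choice of acceptor, with capitals for bases found only in the long form.
Cartpt long second exon: cacgagaaggagctgCCAAGGCGGCAACTT
Cartpt short second exon: cacgagaaggagctgatcgaagcgttgcaa

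**Figure D1:**
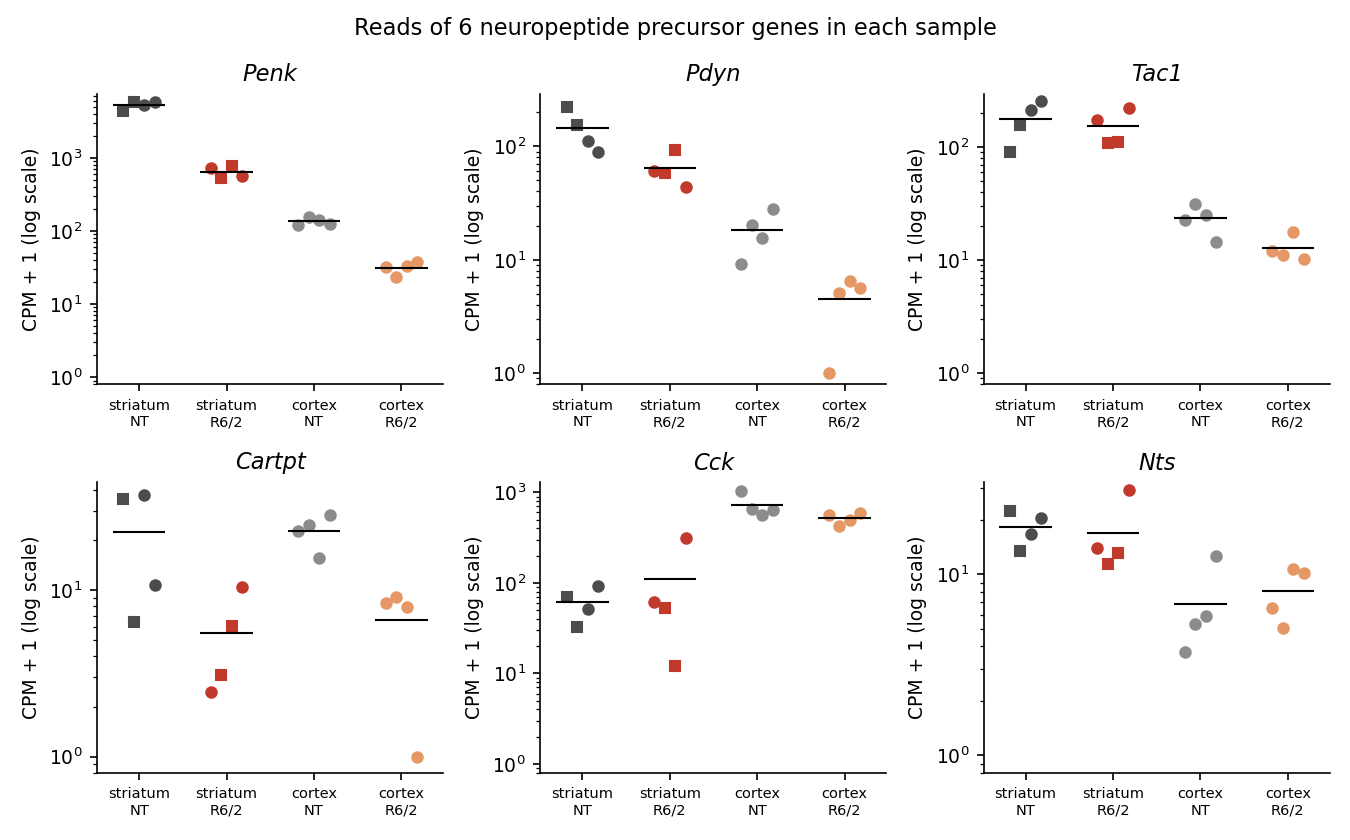
CPM + 1 on a log scale in each of 16 samples for the 6 genes, by region and genotype. Points are samples (squares had 2 count sets, circles 1) and lines are arithmetic group means. Penk sat in 4 separate bands, from 5326 CPM on average in NT striatum to 30.6 CPM in R6/2 cortex.

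Penk, the precursor of Met- and Leu-enkephalin (ENSMUSG00000045573, chromosome 4, 4133531 to 4138819, minus strand), fell in R6/2 in both regions. In the striatum it stood at 4399.95, 5797, 5350.2 and 5755 CPM in NT 1 to 4 and at 731, 528, 785 and 563 CPM in R6/2 1 to 4, from 15525 and 2023 reads. No R6/2 sample came near an NT sample, and the means of 5326 ± 649 and 652 ± 125 CPM (SD, n = 4 each) were 8.17-fold apart. Its log2 fold change was -3.05 with a standard error of 0.28 (edgeR quasi-likelihood test, Benjamini-Hochberg adjusted p = 0.00375 over all genes tested). Lower calls made up 0.509% of the 7658 genes tested in this comparison, and Penk was the only precursor called of the 5 that passed the filter on low counts.

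The difference was present in both kinds of sample. Among the samples with 1 count set NT exceeded R6/2 8.58-fold, and among those with 2 count sets 7.77-fold, with 2 samples per genotype in each. It was -3.04 on the log2 scale (adjusted p = 8.02e-06) with the number of count sets as a term in the edgeR fit, in which 3.84% of genes were lower.

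In the cortex Penk was at 122, 155, 141 and 124 CPM in NT 1 to 4 and at 31.1, 22.4, 31.8 and 36.9 CPM in R6/2 1 to 4. The groups did not overlap, and the NT mean of 135 ± 15.7 CPM was 4.43-fold above the R6/2 mean of 30.6 ± 6.01 CPM (SD, n = 4 each). The log2 fold change was -2.12 with a standard error of 0.22 (edgeR adjusted p = 6.02e-06), in a comparison where 2.76% of 6121 genes were lower. These cortical values rested on 210 and 67 reads.

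Penk was the most region-bound of the 6 genes in NT mice by the size of its log2 difference, at 5.30 with a standard error of 0.25 for striatum over cortex (edgeR adjusted p = 2.51e-10). In R6/2 mice the log2 difference was 4.41 with a standard error of 0.25 (edgeR adjusted p = 4.92e-09). The test of whether the R6/2 change differed between regions gave Penk -0.89 on the log2 scale with a standard error of 0.32, an unadjusted p of 0.0116 and an adjusted p of 0.9997 in the edgeR fit of all 16 samples. That fit called 1 of 7390 genes, 0.0135%, and none of the 5 precursor genes tested. Of these Penk alone had an unadjusted p under 0.05, as had 194 of all genes tested. DESeq2 called 0.0271% and none of the 5 precursor genes either.

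In the striatum the summed indirect pathway markers (Adora2a, Drd2, Gpr6, Sp9, Ptpn7) lay between 331 and 460 CPM in NT and between 91.9 and 193 CPM in R6/2, a ratio of means of 2.97. Of the 4 tested, Gpr6 fell (log2 fold change -1.81, edgeR adjusted p = 0.0325), and 3 fell with the number of count sets as a term, namely Gpr6, Drd2 at -2.22 and Adora2a at -1.55. Sp9, the other one tested, was at 0.14 on the log2 scale (edgeR adjusted p = 0.999). Of 7 markers shared by all projection neurons, 4 fell, among them Ppp1r1b at -2.16 (edgeR adjusted p = 0.0325) and Pde10a and Rgs9 (edgeR adjusted p = 0.00715 each). Direct pathway markers summed to 64.5 to 183 CPM in NT and 91.9 to 171 CPM in R6/2, and 0 of the 3 tested were called, also at an unadjusted p under 0.05. Interneuron markers summed to 332 to 434 CPM in NT and 153 to 233 CPM in R6/2, and 1 of the 4 tested fell, Chat of cholinergic interneurons at -2.13 (edgeR adjusted p = 0.0325). The part of these marker changes in the Penk result was not tested. In such bulk tissue fewer cells of a type and less RNA per cell cannot be told apart.

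In the cortex several marker lists were lower in R6/2 beside Penk. Cortical excitatory markers summed to 195 to 220 CPM in NT cortex and 136 to 191 CPM in R6/2 cortex, with 0 of 4 tested genes called by edgeR. Shared projection neuron markers summed to 263 to 365 CPM in NT cortex and 128 to 156 CPM in R6/2 cortex, and indirect pathway markers to 19.4 to 36.7 CPM and 4.61 to 11.1 CPM. Of the 5 indirect pathway markers 0 passed the filter in the cortex, and Adora2a, the most read, had 24 NT and 8 R6/2 reads. Of 3 shared markers tested there 1 fell, Ppp1r1b at -2.38 on the log2 scale (edgeR adjusted p = 1.6e-06), whose mean went from 179 to 33.6 CPM, while Foxp1 was at 0.25 (edgeR adjusted p = 0.698). Interneuron markers summed to 222 to 316 CPM in NT and 147 to 194 CPM in R6/2 cortex, and astrocyte markers to 775 to 1106 CPM and 560 to 698 CPM. In these lists 0 of 3 and 0 of 5 tested genes were called by edgeR, and 3 and 4 had an unadjusted p under 0.05. So had 1057 of all 6121 genes tested. The part of these marker lists in the cortical result was not tested.

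**Figure D2:**
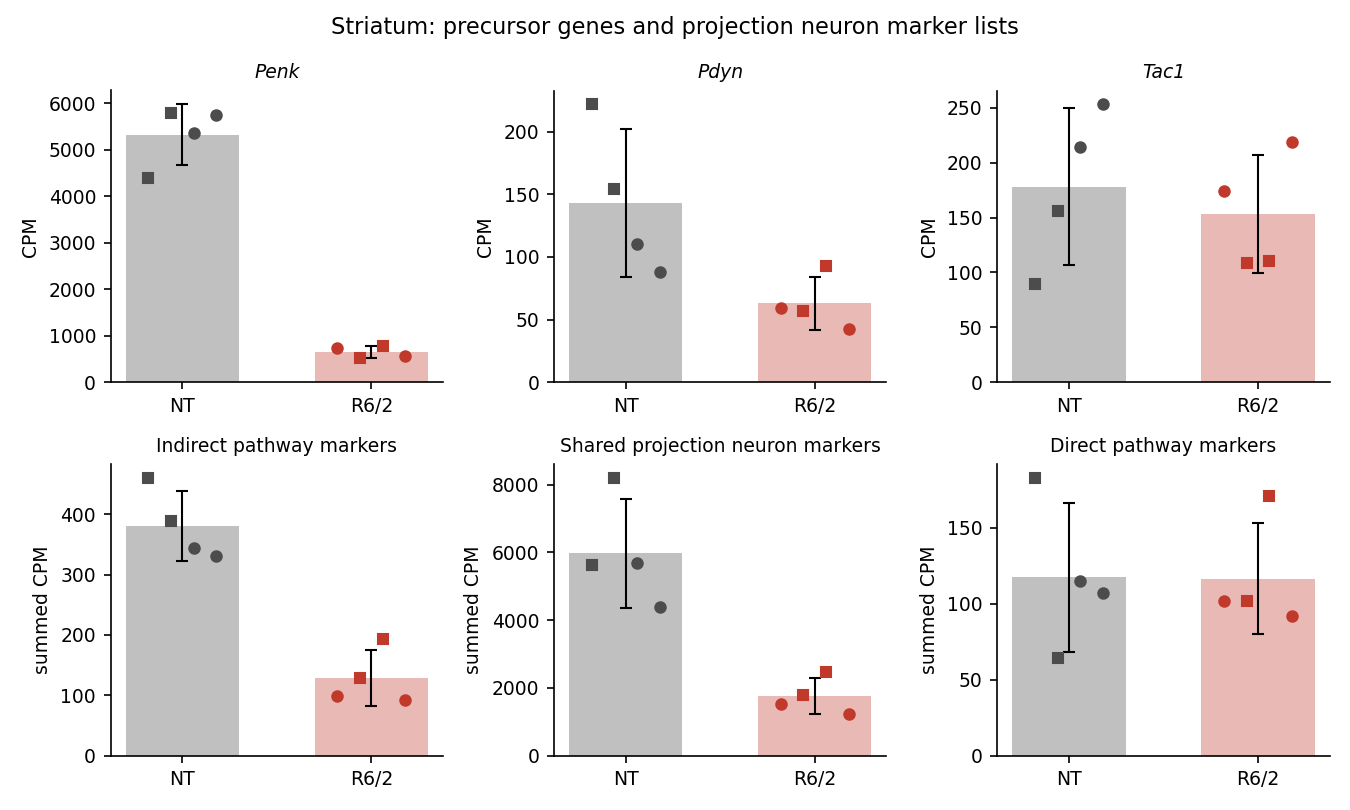
Striatal samples by genotype: CPM of Penk, Pdyn and Tac1 (top) and summed CPM of 3 marker lists (bottom). Bars are means, error bars SD (n = 4), and points samples (squares had 2 count sets). Penk and the indirect pathway and shared markers separated the genotypes, while Tac1 and the direct pathway markers overlapped.

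Pdyn (ENSMUSG00000027400, chromosome 2, 129686565 to 129699844, minus strand) encodes prodynorphin, the source of ligands of the kappa opioid receptor. In the striatum it was at 222, 154, 110.2 and 87.6 CPM in NT 1 to 4 and at 59.6, 57.0, 92.5 and 42.4 CPM in R6/2 1 to 4. Every NT sample lay above every R6/2 sample except that R6/2 3 was just above NT 4. The NT mean of 143 ± 59.1 CPM was 2.28-fold above the R6/2 mean of 62.9 ± 21.1 CPM (SD, n = 4 each).

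The log2 fold change of Pdyn in the striatum was -1.20 with a standard error of 0.30, an unadjusted p of 0.0025 and an edgeR adjusted p of 0.136, which missed the threshold. Within samples with 1 count set and within those with 2 the genotypes did not overlap, at ratios of 1.94 and 2.51. With 2 samples per genotype in each, such separation often arises without a difference. With the number of count sets as a term Pdyn passed the edgeR test at -1.19 (adjusted p = 0.0066), and it passed DESeq2 at -1.18 (adjusted p = 0.00838), where 2.37% of genes were lower. Its size thus stayed near the same value while the call depended on the fit.

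Cortical Pdyn rested on 29 NT and 8 R6/2 reads and did not pass the filter on low counts. It was at 8.11, 19.4, 14.6 and 27.1 CPM in NT and at 0, 4.07, 5.54 and 4.61 CPM in R6/2, and the groups did not overlap (exact permutation test, two-sided p = 0.0286, the smallest that 4 against 4 can give). This p is unadjusted, and the share of all genes whose groups separated was not counted. In edgeR 1057 of the 6121 genes tested there had an unadjusted p under 0.05. The sample without a read, R6/2 1, allows up to 5.49 CPM, taken as 3 counts. A fit without the filter gave a log2 fold change of -2.21 with a standard error of 0.57 (edgeR adjusted p = 0.0115), in which 1.11% of 19059 genes were lower. That p rests on a spread shared over genes and hardly on that of Pdyn itself. That call was lost without NT 4 (edgeR adjusted p = 0.195) and without R6/2 1 (edgeR adjusted p = 0.0974). DESeq2 without the filter called 1 of the 6 precursors in the cortex, Penk, with 2.05% of genes lower. It gave an adjusted p to 7234 of the 19059 genes, so the lack of a call for Pdyn is not a test that it failed. By unadjusted p, 4 of the 6 were under 0.05 in DESeq2, as were 987 of all genes.

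Across regions Pdyn was higher in striatum than in cortex in both genotypes. The log2 difference was 3.003 with a standard error of 0.40 in NT (edgeR adjusted p = 6.01e-05) and 4.07 with a standard error of 0.50 in R6/2 (edgeR adjusted p = 5.34e-05).

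Tac1 (ENSMUSG00000061762) encodes the tachykinins substance P and neurokinin A. In the striatum it stood at 89.5, 156, 214 and 253 CPM in NT 1 to 4 and at 174, 109, 111 and 219 CPM in R6/2 1 to 4, with full overlap of the groups. The means of 178 ± 71.3 and 153 ± 53.5 CPM (SD, n = 4 each) differed by less than the spread between samples. The log2 fold change was -0.22 with a standard error of 0.40 (edgeR adjusted p = 0.999), an error that leaves room for a change of either sign. In both genotypes the samples with 2 count sets gave the lower values: NT averaged 123 and R6/2 110 CPM with 2 sets, against 234 and 197 CPM with 1. The same samples had the longer isoforms per read, and the part of either was not tested.

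Cortical Tac1 was at 21.6, 30.1, 24.4 and 13.5 CPM in NT and 10.99, 10.2, 16.6 and 9.22 CPM in R6/2, from 34 and 27 reads, under the filter. The groups overlapped at NT 4 and R6/2 3, and the exact two-sided permutation p was 0.0571. The striatum exceeded the cortex by 2.97 on the log2 scale with a standard error of 0.37 in NT (edgeR adjusted p = 3.21e-05) and by 3.62 with a standard error of 0.38 in R6/2 (edgeR adjusted p = 1.36e-05).

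Penk, Pdyn and Tac1 were thus the 3 precursors called higher in striatum in both genotypes, where higher calls made up 7.28% of 7390 genes in NT and 5.75% in R6/2. The order of the R6/2 to NT ratio in the striatum was Penk, Pdyn, Tac1 from the strongest fall to the weakest. Differences between the genes in that order were not tested.

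**Figure D3:**
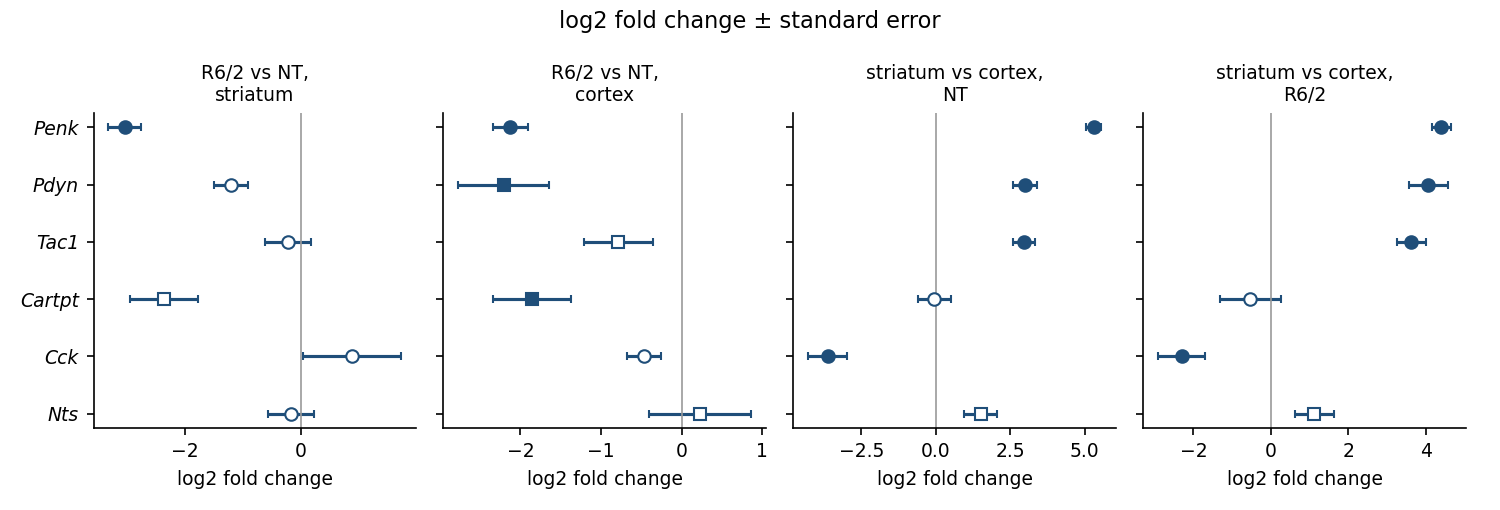
log2 fold change with its standard error for the 6 genes in 4 comparisons. Circles come from the edgeR fit with the filter on low counts, squares from the fit without it for genes under the filter, and filled symbols have an adjusted p under 0.05. Penk is filled in all 4 panels, and Cck lies left of 0 in both comparisons of striatum with cortex.

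Cartpt (ENSMUSG00000021647) encodes the CART peptides. It had few reads everywhere. In the striatum 27, 7, 23 and 2 reads in NT gave 34.0, 5.44, 36.2 and 9.74 CPM, and 1, 2, 5 and 4 reads in R6/2 gave 1.45, 2.07, 5.08 and 9.43 CPM. NT 1 and NT 3 were high and NT 2 and NT 4 low, and the groups overlapped because NT 2 lay below R6/2 4 (exact permutation test, two-sided p = 0.0571). Cartpt was under the filter in this comparison, and the fit without it gave -2.36 on the log2 scale with a standard error of 0.59 (edgeR adjusted p = 0.0599).

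With the number of count sets as a term the same unfiltered fit gave Cartpt -2.34 (edgeR adjusted p = 1.57e-05), where 2.26% of genes were lower. Leaving out 1 sample at a time moved the edgeR adjusted p of Cartpt between 0.000137 without NT 2 and 0.184 without NT 3. It was below 0.05 without NT 2, NT 4, R6/2 3 or R6/2 4, and 0.470 with only the first count set of each sample. Within the samples with 1 count set the ratio of NT to R6/2 was 4.22, and within those with 2 it was 5.52.

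In the cortex Cartpt was at 21.6, 23.7, 14.6 and 27.1 CPM in NT and at 7.32, 8.15, 6.92 and 0 CPM in R6/2, from 36 and 13 reads. The groups did not overlap, with a 3.89-fold difference of means (exact permutation test, two-sided p = 0.0286, the smallest possible). This p is unadjusted, and the share of all genes whose groups separated was not counted. In edgeR 1057 of the 6121 genes tested there had an unadjusted p under 0.05. R6/2 4 had no read, which allows up to 6.92 CPM. The fit without the filter gave a log2 fold change of -1.86 with a standard error of 0.49 (edgeR adjusted p = 0.0144), and DESeq2 gave no adjusted p for it. As for Pdyn, this edgeR p rests on a spread shared over genes. The call was lost without NT 2, NT 4 or R6/2 4 in turn, with adjusted p of 0.0501, 0.0842 and 0.105.

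Cartpt was the only precursor that passed the filter without a call between regions, at log2 differences of -0.05 with a standard error of 0.55 in NT and -0.53 with a standard error of 0.80 in R6/2 (edgeR adjusted p = 0.972 and 0.737). Its cortical and striatal samples overlapped in both genotypes.

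Cck (ENSMUSG00000032532, chromosome 9, 121489824 to 121495694, minus strand) encodes cholecystokinin and ran opposite to the other called genes across regions. It was at 1041, 661, 556 and 634 CPM in NT cortex and at 69.3, 31.9, 50.4 and 92.5 CPM in NT striatum. The cortical mean of 723 ± 217 CPM was 11.8-fold above the striatal mean of 61.0 ± 26.0 CPM (SD, n = 4 each), with no overlap. The log2 difference of striatum to cortex was -3.64 with a standard error of 0.65 (edgeR adjusted p = 0.000925), in a comparison where 7.59% of genes were lower in striatum.

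In the R6/2 cortex Cck was at 560, 424, 497 and 588 CPM. Of these R6/2 1 and R6/2 4 lay just above NT 3, the lowest NT sample, and the other two below it. On the log2 scale R6/2 differed from NT by -0.47 with a standard error of 0.21 (unadjusted p = 0.0406, edgeR adjusted p = 0.266), so that Cck did not pass in the cortex.

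In the R6/2 striatum Cck was at 61.1, 51.8, 11.2 and 311 CPM in R6/2 1 to 4. R6/2 4 stood far above the rest, and the others lay within or below the NT range. Against NT the log2 fold change was 0.90 with a standard error of 0.85 (edgeR adjusted p = 0.895), and without R6/2 4 it was -0.52 (edgeR adjusted p = 0.882). Cortical excitatory markers in that sample summed to 42.4 CPM, against 9.15 to 25.9 CPM in the other R6/2 striata and 136 to 191 CPM in R6/2 cortex. NT 1 had 47.9 CPM of these markers and 69.3 CPM of Cck, and reads lay on 5 of the 6 marker genes in R6/2 4. The part of cortical tissue in the Cck value was not tested.

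Between the regions of R6/2 mice the log2 difference of Cck was -2.31 with a standard error of 0.61 (edgeR adjusted p = 0.0186, 5.6% of genes lower). Its size rested on R6/2 4 of the striatum, without which it was -3.66 (edgeR adjusted p = 8.72e-05). The call was lost when R6/2 1 or R6/2 2 of the striatum or R6/2 2 of the cortex was left out, at adjusted p of 0.0585, 0.0608 and 0.0603.

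**Figure D4:**
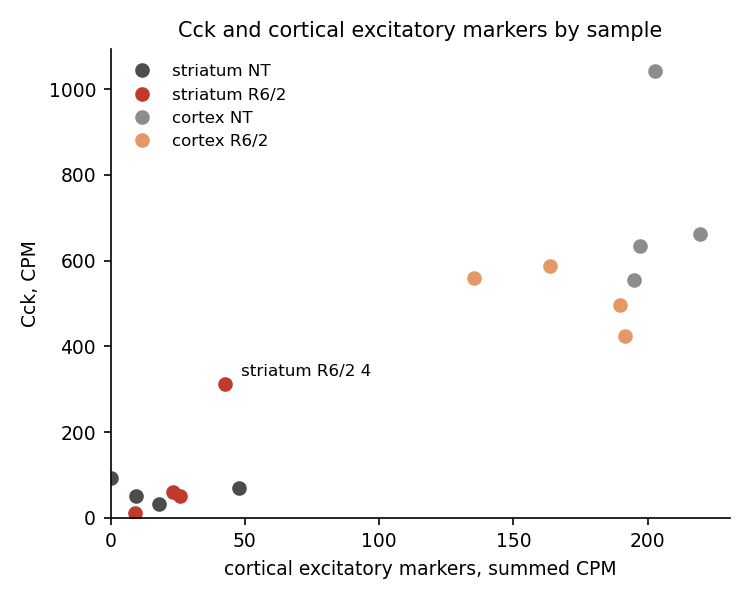
Cck against summed cortical excitatory markers, both in CPM, for 16 samples coloured by group. The striatal samples lie at 0 to 47.9 CPM of markers, and R6/2 4 of the striatum has 311 CPM of Cck beside 42.4 CPM of markers.

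Nts (ENSMUSG00000019890, chromosome 10, 102481756 to 102490486, minus strand) encodes neurotensin and had 47 reads in NT striatum, 43 in R6/2 striatum, 10 in NT cortex and 16 in R6/2 cortex. In the striatum it was at 21.4, 12.4, 15.7 and 19.5 CPM in NT and at 13.1, 10.4, 12.2 and 28.3 CPM in R6/2. The groups overlapped and the log2 fold change was -0.16 with a standard error of 0.40 (edgeR adjusted p = 0.999).

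In the cortex Nts was at 2.70, 4.31, 4.88 and 11.6 CPM in NT and at 5.49, 4.07, 9.69 and 9.22 CPM in R6/2, which also overlapped. Every NT striatal sample exceeded every NT cortical sample for Nts, as did every R6/2 striatal sample for R6/2 cortex (exact permutation tests, two-sided p = 0.0286 each). Both p are unadjusted. In edgeR 2196 of 7390 genes in NT and 1823 in R6/2 had an unadjusted p under 0.05 between the regions. Nts was under the filter in both comparisons, and without the filter neither log2 difference, 1.51 in NT and 1.12 in R6/2, passed (edgeR adjusted p = 0.0689 and 0.213, where 5.64% and 4.06% of genes were higher).

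Some of these genes also differed between the 2 count sets of the same sample. Cck in the first set was 0.325 to 0.666 times its scaled level in the second, Nts 0.352 to 0.732 times and Pdyn 0.673 to 0.954 times, lower in the first set in all 4 samples. Penk ranged from 0.946 to 1.37 times and Tac1 from 1.03 to 1.25 times. The genotype groups had 2 such samples each.

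Isoforms were described over complete reads, that is reads on known isoforms or on new ones whose junctions combine known sites (NIC) or include a new site (NNC). For Penk 31 isoforms held 17533 complete reads, and 17344 of them lay on a single NNC isoform of 3 exons and 1848 nt. That is 399 nt longer than the annotated 2-exon Penk isoform ENSMUST00000070375. A 3-exon Penk isoform is annotated too, ENSMUST00000133567 of 721 nt. The share of the NNC isoform was 99.1 ± 0.0721% in NT striatum, 97.2 ± 0.906% in R6/2 striatum, 96.4 ± 1.41% in NT cortex and 98.4 ± 3.13% in R6/2 cortex (SD, n = 4 each). The count tables give its exon number and length and not its exon positions.

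The annotated 2-exon Penk isoform, named here for its values, had a share that did not overlap between the striatal groups but did not pass the usage test. It was picked because the usage test of Penk turns on it, so its separation is no separate evidence. The leading NNC isoform did not overlap there either, at 99.1 to 99.2% in NT and 96.1 to 98.3% in R6/2. The share of the 2-exon isoform was 0.500 to 0.720% of complete reads in NT, from 83 reads, and 1.45 to 3.49% in R6/2 from 40 reads. Its usage against the rest of the gene was 1.33 higher on the log2 scale (adjusted p over isoforms 0.115, edgeR diffSpliceDGE). At the gene level the adjusted Simes p from edgeR was 0.153, and 0.0676% of 4437 genes passed, none of the 5 precursors tested among them. With the number of count sets as a term Penk passed (adjusted p = 0.00301, with 0.451% of genes called), and with only the first count set the adjusted p was 0.786, with ISM isoforms added 0.99999. In NT cortex the share was 2.33 to 4.23%, from 7 reads, which also lay above every NT striatal sample, and the gene-level adjusted p for usage between regions was 0.308 (0.319% of 5641 genes called).

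For Tac1 the 6-exon isoform without the 45-nt exon led. In NT striatum it held 62.7, 61.2, 45.6 and 56.5% of complete reads in NT 1 to 4, and in R6/2 striatum 59.6, 58.2, 67.3 and 56.6% in R6/2 1 to 4. The 7-exon isoform with the exon held 37.4 ± 10.3% and 32.4 ± 4.11% (SD, n = 4 each). The groups overlapped for both isoforms and the gene-level usage test gave an adjusted p of 0.99997 (edgeR diffSpliceDGE). NT 3 was the 1 striatal sample in which the 7-exon form, at 52.6%, exceeded the 6-exon form.

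In the cortex the 6-exon share of Tac1 ran from 30.8 to 62.5% in NT, over 32 complete reads, and from 40.0 to 80.0% in R6/2, over 26. The usage test of Tac1 in the cortex gave an adjusted p of 0.99996 (edgeR diffSpliceDGE), and 0.36% of 3058 genes passed, neither of the 2 precursors tested among them, also at an unadjusted p under 0.05. Of the other isoforms of Tac1, 2 reached 5% of complete reads in a group, a 6-exon NNC isoform of 1361 nt with 10 reads in all and a 6-exon NIC isoform of 1250 nt with 3.

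Cartpt was read mostly as an NNC isoform of 3 exons and 835 nt. It had 84 of the 115 complete reads, against 29 for the annotated 3-exon isoform ENSMUST00000022150, of 874 nt in the count tables and 827 nt in GENCODE M21. The lengths in the count tables differ by 39 nt, the same number as between the long and short second exon, but the exon positions of the NNC isoform are not in those tables. The NNC share was 67.2% in NT striatum, 80% in R6/2 striatum, 82.4% in NT cortex and 69.2% in R6/2 cortex, over 58, 10, 34 and 13 complete reads. Both isoforms were seen in every group, and the share in NT striatum and R6/2 striatum overlapped (exact permutation test, two-sided p = 0.971). A NIC isoform of 2 exons with 1 read was the remaining Cartpt isoform over 5% of a group.

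Cck reads lay chiefly on the annotated 3-exon isoform ENSMUST00000035120, with 2455 of 2640 complete reads. Its share was 93.1 ± 2.4% in NT cortex, 94.0 ± 2.3% in R6/2 cortex, 87.1 ± 7.42% in NT striatum and 81.3 ± 10.3% in R6/2 striatum (SD, n = 4 each). A 2-exon isoform, ENSMUST00000215228, held 3.50 ± 0.818% in NT cortex and 8.66 ± 6.51% in NT striatum. The groups overlapped in each comparison for both isoforms, and no usage test of Cck passed.

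**Figure D5:**
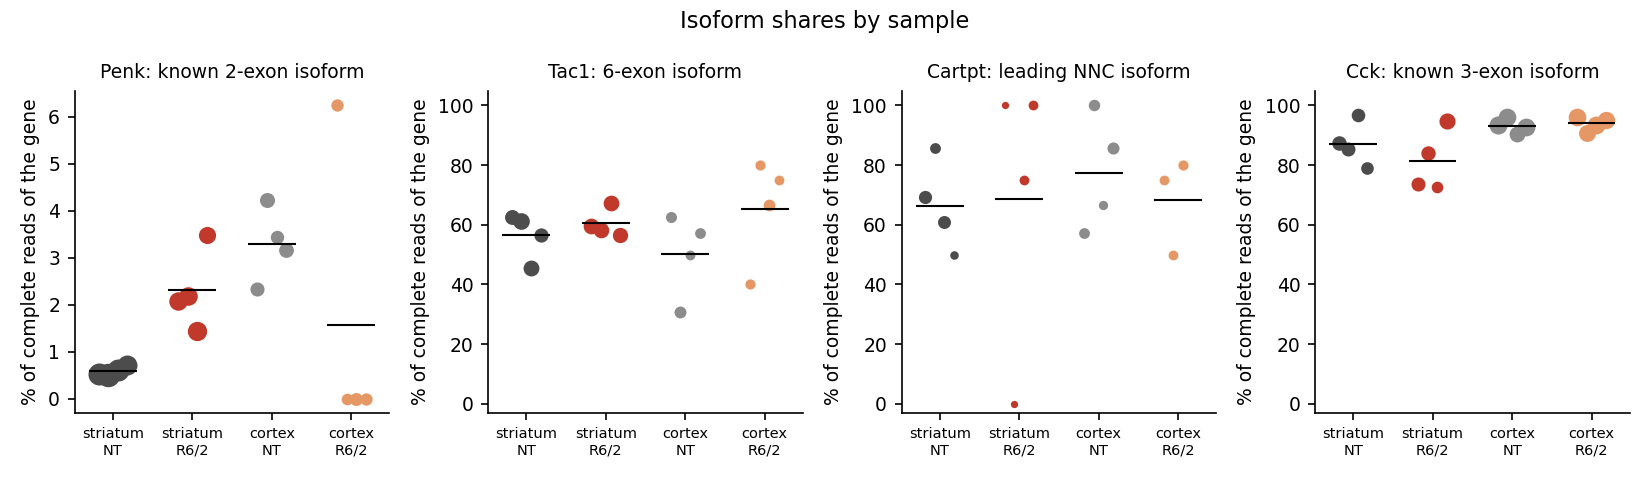
Share of complete reads of the gene, in percent, held by 1 isoform each of Penk, Tac1, Cartpt and Cck in every sample with reads. Lines are group means and larger points have more complete reads. The 2-exon Penk isoform, chosen for its values, lay at 0.500 to 0.720% in NT striatum and at 1.45 to 3.49% in R6/2 striatum. The other 3 isoforms overlapped between genotypes.

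Many Cck reads were not in the gene counts. A 1-exon isoform of 337 nt, put in TALON's Genomic class (reads that overlap a gene without matching its splicing), had 1238 reads, and the Genomic class held 32.0% of all Cck reads. Its share per sample was 23.4 to 32.9% in NT cortex, 25.8 to 40.0% in R6/2 cortex, 6.82 to 51.5% in NT striatum and 35.1 to 40.8% in R6/2 striatum. The annotated last exon of Cck is 378 nt long. For Pdyn the Genomic class held 13.6% of reads, for Tac1 3.07% and for Penk 0.928%, and Cartpt had 0 of 120 reads in it.

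Pdyn and Nts were simpler. The annotated 4-exon Pdyn isoform ENSMUST00000028883 held 648 of 675 complete reads, with 94.3 ± 2.41% in NT striatum and 96.7 ± 2.74% in R6/2 striatum (SD, n = 4 each). The annotated 4-exon Nts isoform ENSMUST00000020040 held 99 of 104, and an NNC isoform of 1243 nt the other 5. Their groups overlapped.

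The genes whose pattern over the 16 samples was nearest to each precursor were found by the root mean square difference of log2 CPM, each gene centred on its own mean, among 4756 genes. For Penk they were Ppp1r1b, the phosphatase inhibitor DARPP-32, at 0.49 and Rgs9 at 0.66, where Penk itself varied by 2.71. For Pdyn they were Wfs1 at 0.47 and Rxrg at 0.50, with 1.69 for Pdyn itself. For Tac1 they were Pcp4l1 and Pfn1, both at 0.58. For Cck they were Slc30a3, a zinc transporter of glutamatergic vesicles, at 0.77 and Nrn1 at 0.89, and for Cartpt Kcna1 and Rbp4, both at 0.72, against 1.09 for Cartpt itself. Nts was under the filter and was not compared.

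Other precursors were measured beside these 6. Of 18 other neuropeptide precursor genes 16 had reads, and 3 passed the filter in the cortex. Of those, Vip (vasoactive intestinal peptide) fell in R6/2 at -1.60 on the log2 scale (edgeR adjusted p = 0.00532) and Npy (neuropeptide Y) at -1.17 (edgeR adjusted p = 0.00192), and Sst (somatostatin) was at -0.93 (edgeR adjusted p = 0.158). In the striatum 0 of 3 were called by edgeR, and 1 had an unadjusted p under 0.05, as had 760 of all 7658 genes tested. It was Agt (angiotensinogen) at -1.72, which passed with the number of count sets as a term (edgeR adjusted p = 0.00771). The 18 genes summed to 360 to 544 CPM in NT cortex and 157 to 225 CPM in R6/2 cortex.

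Of 16 genes for peptide processing and granule proteins, 14 were tested in the cortex and 2 fell, Cadps2, which primes dense-core vesicles, at -1.51 (edgeR adjusted p = 0.00837) and Chga (chromogranin A) at -0.66 (edgeR adjusted p = 0.0418), in a comparison where 2.76% of all genes were lower. In the striatum 0 of 12 were called, with 2 at an unadjusted p under 0.05, as had 760 of all 7658 genes tested. The 2 were Chgb (chromogranin B) at -0.62 and Qpct, a glutaminyl cyclase, at 0.68. With the number of count sets as a term Chgb passed (adjusted p = 0.0422). The median log2 fold change of the tested genes was -0.13 in the cortex and -0.19 in the striatum, against 0.02 and -0.01 over all genes tested.

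Of 11 peptide receptor genes, edgeR tested 2 in cortex and 4 in striatum and called 0 in either region. In the cortex Ntsr2, at -0.58, had an unadjusted p under 0.05, as had 1057 of all 6121 genes tested. In the striatum 3 of the 4 had an unadjusted p under 0.05, as had 760 of all 7658 genes tested. They were Oprk1, the kappa receptor on which dynorphins act, at -1.52 on the log2 scale, the neurotensin receptor Ntsr2 at -0.70 and Sort1 (sortilin), which also binds neurotensin, at -1.13. With the number of count sets as a term Ntsr2 passed (adjusted p = 0.0247).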

How the data were processed

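PacBio long-read cDNA libraries (Terminator exonuclease treatment, 27 amplification cycles, no molecular identifiers) were made from 16 samples. The authors aligned reads to mm10 with minimap2 2.17-r941, corrected them with TranscriptClean and annotated isoforms with TALON, and the deposited values are read counts per isoform in 20 tables. The 2 tables of each of 4 striatal samples were summed. Gene counts joined known, ISM, NIC and NNC isoforms, and complete reads left out ISM. R 4.3.3 with edgeR 4.0.16 (TMM, filterByExpr, quasi-likelihood test, Benjamini-Hochberg threshold 0.05 over all genes) compared genotypes within each region. One fit of all 16 samples compared regions and gave the interaction. The standard error is approximate, the log2 fold change divided by the root of F. Isoform usage was tested with diffSpliceDGE (Simes, isoforms of at least 10 reads). DESeq2 1.42.0 was an alternative. Exact two-sided permutation tests compared mean CPM, 24 in all, and further ones of the same kind compared mean isoform shares. None was adjusted, and the share of all genes whose groups did not overlap was not counted. Genes under the filter were also fitted without it, an alternative chosen after seeing the data, as were the permutation tests. Scripts were tested on simulated data. pandas 2.3.3, scipy 1.17.1 and matplotlib 3.10.9 were used.

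Total reads ran from 252885 to 1496196 per sample. Limits from a count of 0 are 3 counts and cover counting error only, since amplified reads are not independent molecules. Nothing in the labels ties samples to separate animals beyond their numbers. In the paper they are a subset of its short-read RNA-seq samples, described as biological replicates, with 4 males per condition. The p-values measure the spread between samples, except in the unfiltered edgeR fits of the cortex and of all 16 samples. There the p of each precursor equals the normal-distribution value for log2 fold change over standard error, so its own spread had little part. Members and gene lists were chosen with earlier results of these data known. Named were the 6 precursors, up to 4 genes of smallest p per list, the 2 nearest genes to each precursor among those with at least 20 reads per sample on average, with 2 reads added to each count, and isoforms with at least 5% of complete reads in a group.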

Additional observations from a re-analysis of the deposited data

Results flagged for a closer look

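In 42 groups of 4 samples, 4 had a sample far from the others by Dixon's test, which chance gives in about 1 group in 20. Cck in R6/2 striatum reached 311 CPM in R6/2 4, with the nearest sample at 61.1 CPM. Nts in R6/2 striatum was highest in the same sample, at 28.3 CPM against 13.1 CPM in the nearest. Cartpt in R6/2 cortex was at 0 CPM in R6/2 4, with the nearest at 6.92 CPM. A 6-exon NIC isoform of Tac1 took 1.20% of complete reads in R6/2 4 of the striatum, 1 read, and 0 in the other R6/2 striata. With all other samples at 0, any single read gives the largest possible ratio in this test. That flag therefore adds nothing to the comparison with the chance rate.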

How the results depend on the processing

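In R6/2 cortex 1 precursor, Penk, was called. The count was 3 in edgeR with no filter on low counts, namely Penk, Pdyn and Cartpt, and 1 in DESeq2 with no filter, Penk. That DESeq2 fit gave an adjusted p to 7234 of 19059 genes. The count with the filter ranged from 1 to 2 when a sample was left out, with 2 without NT 3. Standard errors moved between the edgeR fits. For Cck between NT regions the error was 0.65 with the filter and 0.33 without it, and for Penk in the cortex 0.22 and 0.25. In R6/2 striatum 1 was called, and 2 with DESeq2, with mean isoform length per read as a term or with the number of count sets as a term. With the sample number as a replicate block 0 were called, Penk being at -3.06 (edgeR adjusted p = 0.0510). Deviations of same-numbered samples correlated at -0.658 to 0.734 between the genotypes in striatum, -0.100 to 0.237 in cortex, and between the regions at -0.252 to 0.317 in NT and -0.044 to 0.536 in R6/2. No set had all pairs above 0.1, and the labels do not say what a number marks. In unfiltered fits the block moved Cartpt in striatum to an adjusted p of 0.00373 and Nts between NT regions to 0.0457, and it changed no other call of the 6 genes. Isoform usage in R6/2 striatum went from 0 to 1 with the number of count sets as a term. Over all genes, calls in striatum went from 39 to 332 with that term and ranged from 0 to 494, and calls in cortex from 47 to 327 around 197.

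Signs changed for values that were not called. On the log2 scale Cartpt between NT regions was at 0.024 with DESeq2, 0.11 without the filter, 0.28 in samples with 1 count set, and -0.40 to 0.39 when a sample was left out. Cck in striatum was at -0.66 in samples with 2 count sets and -0.52 (without R6/2 4) to 1.31 when a sample was left out, and its interaction ran from -0.021 (without R6/2 4 of the striatum) to 1.73. Nts in striatum ran from -0.52 to 0.057 (without R6/2 2), Nts in cortex without the filter from -0.024 to 0.901, and its unfiltered interaction was at 0.0058 in samples with 1 count set. The cause was not tested. Of 522 values of single genes 503 kept direction and side of the threshold, and of 151 from fits without the filter 125 did, with 13 moving past the threshold, 10 losing it and 3 changing sign. Low read numbers limit Cartpt, Nts and cortical Pdyn and Tac1.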
